A study of Mus musculus with 8 samples.

Results

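Contractile force in cells outside striated muscle is made by nonmuscle and smooth muscle myosin pulling on actin filaments. Heavy chains such as Myh9 and Myh10 form the motors, regulatory light chains such as Myl9 switch them on when phosphorylated, tropomyosin, calponin and transgelin line the filaments, and filamin and alpha-actinin link the filaments into networks and bundles. In limb mesenchyme such filaments are known for cell shape, tension and migration, while Acta2, Tagln and Cnn1 are best known as products of smooth muscle cells and myofibroblasts. The genes described here were 10 of this machinery, Myh9, Myh10, Synpo, Acta2, Tagln, Cnn1, Tpm1, Myl9, Flna and Actn1, out of 18193 genes with a probe set of their own on the array. Every probe set whose only platform gene symbol was one of them was taken, which gave 23 probe sets. The genes were proposed with the difference between the 2 cell sorts in these same arrays already known, so that difference is described below with no test.

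The cells came from limb buds of mouse embryos at stage E10.5 that carried 1 copy of the allele Shhgfpcre, which marks cells expressing the ligand gene Shh with green fluorescent protein (GFP). Sorted GFP-positive cells were the zone of polarizing activity (ZPA), the posterior signalling region of the limb bud, and the GFP-negative cells of the same limb buds were the non-ZPA group, so that both groups carried the allele. RNA of 4 ZPA and 4 non-ZPA samples was hybridised to Mouse430_2 arrays, on which a gene is read by 1 or more probe sets that each give a signal intensity in arbitrary units. ZPA replicates 1 and 2 held equal values within 0.5 units, less than sampling noise, and were counted as 1 array, called ZPA 1-2, which left 3 ZPA and 4 non-ZPA arrays. Nothing in the labels says whether the samples were separate litters or separate sorts, so the spread between them may be technical. In sorted cells measured in bulk, fewer cells of a type and less RNA per cell cannot be told apart.

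Some arrays stood apart before any contractile gene was considered. The bacterial spike-ins were 10.2, 1.43 and 5.96 times the non-ZPA mean on ZPA arrays 1-2, 3 and 4, and 0.793 to 1.16 times on the 4 arrays of non-ZPA cells. The ratio of the 3 prime to the 5 prime Actb probe set, which rises when RNA is degraded or the amplified product is short, was 3.28, 3.18 and 21.6 on ZPA arrays 1-2, 3 and 4, against 2.04 to 5.37 on the non-ZPA arrays. Shh itself had intensities of 6230, 12100 and 11200 on the ZPA arrays and 203 to 1080 on the non-ZPA arrays, in the direction of the labels. The general limb mesenchyme genes Prrx1 and Twist1 were well measured in both sorts, at 3600 to 9580 and 2720 to 3960 on ZPA arrays and 6420 to 11400 and 2100 to 3640 on non-ZPA arrays. Title numbers and recorded scan days split the arrays the same way into run 1, with ZPA 1-2 and non-ZPA 1 and 2, and run 2, with replicates 3 and 4 of both sorts.

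Many contractile genes are switched on by serum response factor, which binds the CArG box, and by TEAD factors, which bind the MCAT element CATTCC. The CArG box was searched only in its strict form CCWWWWWWGG, where W is A or T. RefSeq start-site windows of 300 bases in build GRCm38.p6 were used for 8 of the 10 genes, all but Synpo and Tagln. The windows of Acta2 and Tpm1, which were lower in the ZPA, and of Myl9, the 1 gene of the 8 with a strict CArG box, are printed below. They run 5′ to 3′ on the strand of the gene, with MCAT elements (CATTCC on either strand) or the strict CArG box in capitals.
Acta2, chr19:34255324-34255623, minus strand: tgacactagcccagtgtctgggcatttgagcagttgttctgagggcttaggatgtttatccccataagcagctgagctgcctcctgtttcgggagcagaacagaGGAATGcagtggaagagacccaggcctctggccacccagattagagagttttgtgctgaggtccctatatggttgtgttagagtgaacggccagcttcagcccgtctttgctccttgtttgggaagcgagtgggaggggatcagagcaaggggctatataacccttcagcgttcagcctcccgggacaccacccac
Tpm1, chr9:67049164-67049463, minus strand: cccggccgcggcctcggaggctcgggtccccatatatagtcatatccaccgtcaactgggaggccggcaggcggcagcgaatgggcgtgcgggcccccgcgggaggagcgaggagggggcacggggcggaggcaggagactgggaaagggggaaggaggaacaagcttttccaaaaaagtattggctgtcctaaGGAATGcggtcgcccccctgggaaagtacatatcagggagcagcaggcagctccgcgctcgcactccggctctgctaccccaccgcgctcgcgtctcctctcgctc
Myl9, chr2:156775214-156775513, plus strand: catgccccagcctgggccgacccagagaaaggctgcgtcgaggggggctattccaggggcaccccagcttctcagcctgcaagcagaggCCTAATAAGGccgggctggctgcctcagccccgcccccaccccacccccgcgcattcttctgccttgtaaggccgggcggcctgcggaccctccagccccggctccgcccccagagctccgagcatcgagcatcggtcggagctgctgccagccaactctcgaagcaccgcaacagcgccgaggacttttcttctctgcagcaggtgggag
Counted with 0 at the first base of the start site, the MCAT element lay from -146 to -141 in the Acta2 window and from -56 to -51 in the Tpm1 window, and the CArG box of Myl9 lay from -161 to -152. The MCAT letters were found in 4 of the 8 windows, those of Acta2, Tpm1, Myh10 and Flna, and in 14.7% of all 32851 windows of the table. The strict CArG box was found in 1 of the 8 and in 1.63% of all windows, searched on both strands. Forms with 1 letter changed, such as ccctatatgg and ccttgtttgg in the Acta2 window, were not counted. Each window holds 1 annotated start of its gene and no other start or enhancer, and a match of letters is no evidence of binding.

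The heavy chain Myh9, the motor of nonmuscle myosin IIA, had the largest gain in ZPA cells among these genes, on 1 of its 5 probe sets. Probe set 1420172_at had intensities of 8220, 3750 and 19300 on ZPA arrays 1-2, 3 and 4, against 2080, 2510, 1600 and 1320 on non-ZPA arrays 1 to 4. Every ZPA array lay above every non-ZPA array, and the ZPA values spread over a wider range than the non-ZPA values. The ZPA mean was 10400 ± 8020 (SD, n = 3) and the non-ZPA mean 1880 ± 526 (SD, n = 4), a log2 difference of 2.20 ± 0.46 (SE), or 4.58-fold, on the scale of log2(intensity + 16) used throughout. Without ZPA array 4, where the value was highest, the difference was 1.60, or 3.03-fold. It was 1.84 in run 1 and 2.54 in run 2.

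The other Myh9 probe sets did not all follow. Probe set 1420171_s_at had 3510, 699 and 4710 on the ZPA arrays, against 1010, 741, 1290 and 516 on the non-ZPA arrays, with ZPA 3 inside the non-ZPA range and a log2 difference of 1.41 ± 0.55. Probe set 1417472_at read 1260, 410 and 1450 on the ZPA arrays and 883, 596, 527 and 197 on the non-ZPA arrays, again with ZPA 3 inside the non-ZPA range (0.88 ± 0.52). Probe set 1420170_at pointed the other way, at 138, 53.1 and 224 on the ZPA arrays and 429, 325, 323 and 93.1 on the non-ZPA arrays, 2.01-fold lower in ZPA cells. The dim probe set 1440708_at lay between 20.8 and 98.1 on the ZPA arrays and between 8.5 and 186 on the non-ZPA arrays. ZPA 3 was the lowest ZPA array on all 5. The plot of the Myh9 probe sets shows 3 of them above and 2 below the non-ZPA mean in ZPA cells. Probe sets of both signs within a gene were common in these arrays, at 3 of the 5 members with more than 1 tested probe set and 3435 of 6268 such genes (54.8%). The log2 differences of Myh9 spanned 3.20, against a median span of 0.85 over those genes, and 0.814% of them spanned as much or more. A span grows with the number of probe sets, and Myh9 had 5 where the other genes had any number above 1. Myh9 was also chosen from this contrast, so nothing is read from its place. Which Myh9 transcripts each probe set reads was not tested.

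**Figure D1:**
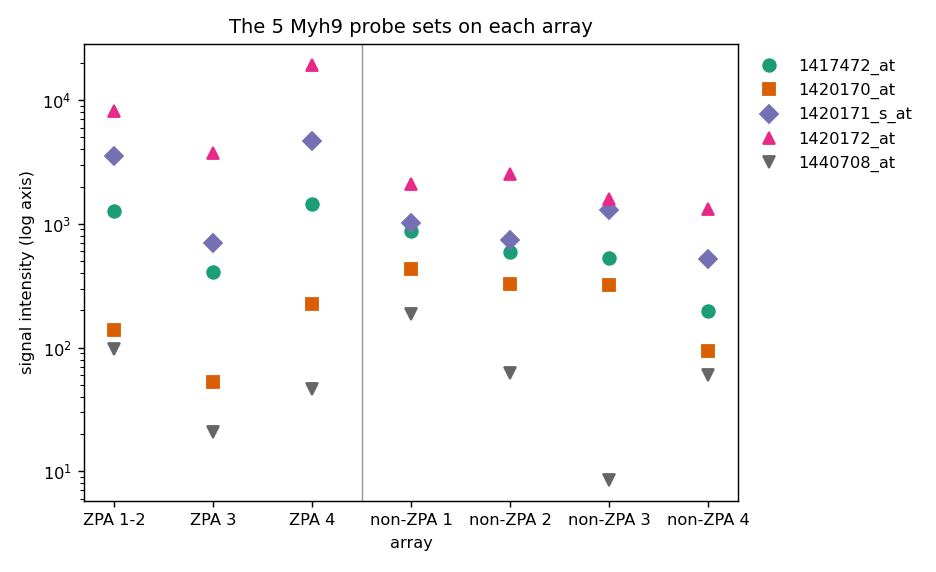
Signal intensity (log axis, arbitrary units) of the 5 Myh9 probe sets on the 3 ZPA arrays (left of the line) and the 4 non-ZPA arrays (right). Probe set 1420172_at lies between 3750 and 19300 on ZPA arrays and between 1320 and 2510 on non-ZPA arrays, while 1420170_at is at 53.1 to 224 on ZPA arrays and 93.1 to 429 on non-ZPA arrays.

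Myh10, the heavy chain of nonmuscle myosin IIB, was strongly measured and close between the sorts. Its main probe set 1452740_at had 11500, 10300 and 10400 on ZPA arrays 1-2, 3 and 4, against 11000, 13700, 10900 and 12400 on the non-ZPA arrays. The groups overlapped, with a log2 difference of -0.16 ± 0.27 (ZPA mean 10700 ± 676, non-ZPA mean 12000 ± 1330), or -0.50 after quantile normalization and -0.42 after median centring. The second probe set, 1441057_at, was dim, at 144, 46 and 39.3 on the ZPA arrays against 134 to 180 on the non-ZPA arrays (-1.05 ± 0.48), and 2 of its 3 ZPA values lay below the filter level of their array. In run 1 that probe set differed by 0.01 and in run 2 by -1.63.

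Myl9, the regulatory light chain typical of smooth muscle and nonmuscle myosin, was read by 1 probe set at 288, 150 and 1290 on ZPA arrays 1-2, 3 and 4. On non-ZPA arrays 1 to 4 it was 231, 307, 174 and 151. Only ZPA 4 lay outside the non-ZPA range by more than 1 unit, since ZPA 3 at 150 was next to non-ZPA 4 at 151. The log2 difference of 0.85 ± 0.58 rested on 1 array and was 0.00 when ZPA 4 was left out.

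Acta2, the smooth muscle actin, was lower in ZPA cells on its 1 measured probe set, 1416454_s_at. Its intensities were 722, 252 and 460 on ZPA arrays 1-2, 3 and 4, against 1830, 3270, 699 and 755 on non-ZPA arrays 1 to 4. The groups overlapped, because ZPA 1-2 lay above non-ZPA 3, and the non-ZPA arrays split into high values in run 1 and low values in run 2. The ZPA mean was 478 ± 235 and the non-ZPA mean 1640 ± 1210, a log2 difference of -1.57 ± 0.53 (2.97-fold lower in ZPA cells). The difference was -1.74 in run 1 and -1.05 in run 2. The suffix of this probe set marks, in the maker's naming, probes that can match more than 1 transcript, and the actins are close in sequence. The cardiac actin Actc1 was 88.1, 120 and 313 on the ZPA arrays and 711, 2110, 157 and 120 on the non-ZPA arrays, so that the same run 1 non-ZPA arrays were its highest. The other Acta2 probe sets, 1444105_at and 1456658_at, stayed between 4.71 and 106 on the ZPA arrays and between 2.3 and 33.4 on the non-ZPA arrays and did not pass the filter.

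Tagln (transgelin) and Cnn1 (calponin), further smooth muscle products, were at or below the level of the dimmest probe sets. Tagln had 43.1, 8.1 and 50.8 on the ZPA arrays and 5.5, 12.6, 96.4 and 11.5 on the non-ZPA arrays, above the filter level on non-ZPA 3 alone. Cnn1 had 50.1, 8.6 and 11.1 on the ZPA arrays and 7.2, 2.3, 11.5 and 16.7 on the non-ZPA arrays, below the filter level on all 7. That level, the 40th percentile of each array, ran from 50.8 to 91.9. Neither gene was tested, and no difference could be measured at these intensities. Myh11 and Lmod1, defining markers of smooth muscle, were below the filter level on all arrays of both sorts, at 6.3 to 29.5 and 9.7 to 31.4 on ZPA arrays and 8 to 31.8 and 3.6 to 9.1 on non-ZPA arrays. Smtn, another smooth muscle marker of the list, had 189, 190 and 591 on the ZPA arrays and 47.8 to 160 on the non-ZPA arrays. Its groups did not overlap, and it was higher in ZPA cells, the direction opposite to Acta2. The summed intensity of the smooth muscle and pericyte markers was 3613, 4424 and 13195 on the ZPA arrays and 2423 to 3321 on the non-ZPA arrays. Most of that sum was the pericyte receptor Pdgfrb, at 2790, 4020 and 12400 on the ZPA arrays and 1730 to 2710 on the non-ZPA arrays. The pericyte marker Rgs5 went the other way by mean, at 25.8 to 100 on ZPA arrays and 81.4 to 302 on non-ZPA arrays, and Des was at 11.9 to 129 on ZPA arrays and 28.3 to 155 on non-ZPA arrays. Cspg4 and Abcc9 were also lower in ZPA cells by mean. None of the 6 tested markers of the list passed.

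Tpm1, a tropomyosin that wraps along actin filaments and sets which myosins and crosslinkers reach them, was lower in ZPA cells on 3 of its 4 probe sets. Probe set 1423721_at had 403, 493 and 668 on ZPA arrays 1-2, 3 and 4, against 1030, 1410, 992 and 1040 on non-ZPA arrays 1 to 4. Every ZPA array lay below every non-ZPA array, with a ZPA mean of 522 ± 135, a non-ZPA mean of 1120 ± 194 and a log2 difference of -1.09 ± 0.32 (2.13-fold lower in ZPA cells). Probe set 1423049_a_at also kept the groups apart, at 182, 389 and 219 on the ZPA arrays and 411, 1760, 495 and 464 on the non-ZPA arrays (-1.30 ± 0.49). The gap there was narrow, between 389 on ZPA 3 and 411 on non-ZPA 1, and non-ZPA 2 was far above the other non-ZPA arrays. Probe set 1456623_at had 85.7, 251 and 206 on the ZPA arrays and 424, 651, 319 and 225 on the non-ZPA arrays (-1.11 ± 0.46), and the groups overlapped through ZPA 3. The fourth, 1447713_at, was dim, at 32.6 to 72.8 on ZPA arrays and 4.4 to 73.4 on non-ZPA arrays.

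Synpo, or synaptopodin, an actin-binding protein that holds alpha-actinin and stress fibres together in podocytes and neurons, showed the largest difference of all the 23 probe sets. Probe set 1434089_at had 542, 196 and 289 on ZPA arrays 1-2, 3 and 4, against 3580, 4880, 3840 and 2980 on non-ZPA arrays 1 to 4. The groups were far apart, with the highest ZPA value well under the lowest non-ZPA value. The mean was 342 ± 179 over ZPA arrays and 3820 ± 792 over non-ZPA arrays, a log2 difference of -3.51 ± 0.37 (11.4-fold lower in ZPA cells). It was -2.91 in run 1 and -3.74 in run 2, and leaving out any 1 ZPA array gave -3.89 to -3.19. The second probe set, 1427045_at, did not reach the filter level on any ZPA array, at 53.9, 25 and 18.8 against 33.7, 59.5, 75.8 and 99.3 on the non-ZPA arrays (-0.78 ± 0.60, groups overlapping).

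**Figure D2:**
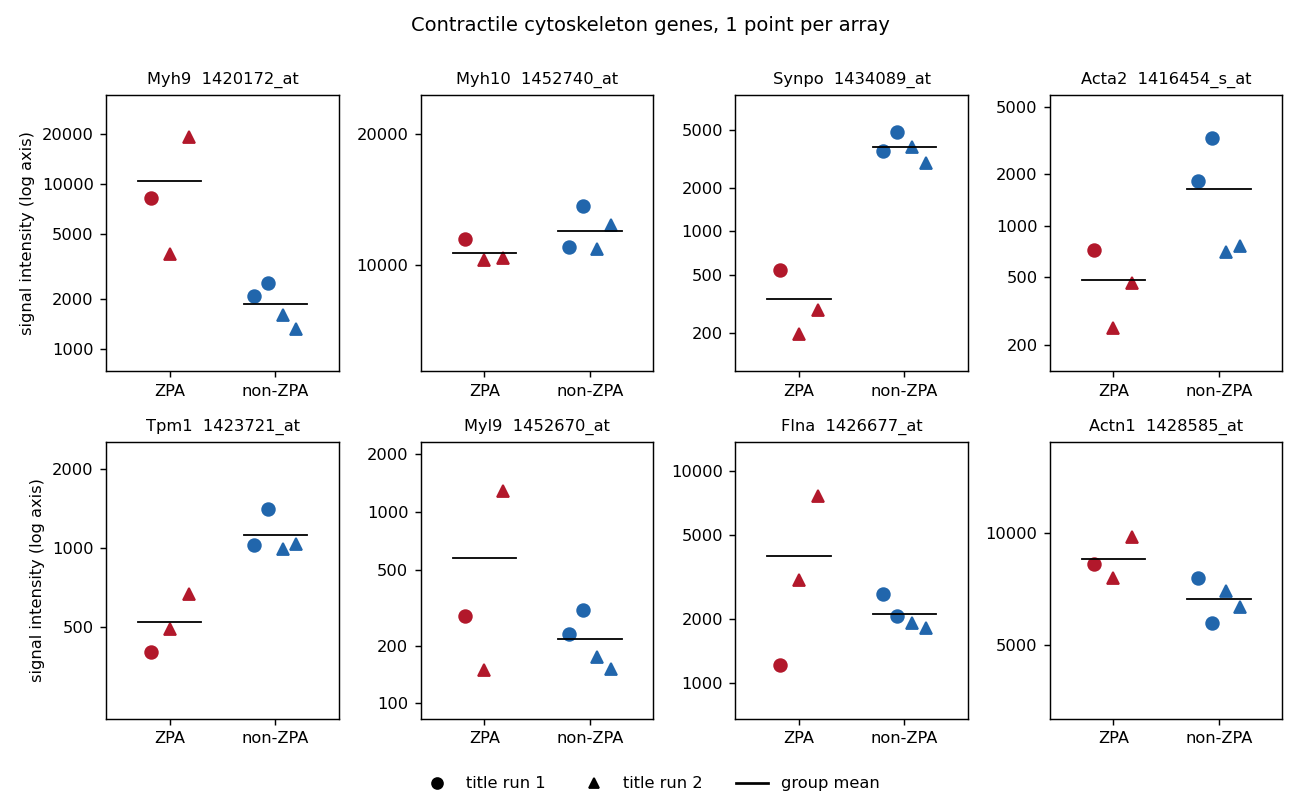
Signal intensity (log axis, arbitrary units) of 8 probe sets, 1 for each contractile gene that passed the filter, on 3 ZPA arrays (red, left) and 4 non-ZPA arrays (blue, right), with circles for run 1, triangles for run 2 and a line at the mean. Myh9 is higher on all ZPA arrays, Synpo and Tpm1 are lower on all of them, and Myl9 and Flna are carried upward by ZPA 4.

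Flna, the filamin that crosslinks actin into networks and anchors integrins, had 1220, 3050 and 7650 on ZPA arrays 1-2, 3 and 4, against 2630, 2070, 1930 and 1820 on non-ZPA arrays 1 to 4. ZPA 1-2 was the lowest of all arrays and the other ZPA arrays were the highest, so the log2 difference of 0.54 ± 0.48 averaged opposite values. It was -0.12 without ZPA 4 and 1.20 without ZPA 1-2. Actn1, the alpha-actinin that bundles filaments in stress fibres and adhesions, was strongly measured by 1428585_at, at 8260, 7540 and 9710 on the ZPA arrays and 7560, 5720, 6960 and 6330 on the non-ZPA arrays. The groups overlapped narrowly, since ZPA 3 lay just under non-ZPA 1, with a log2 difference of 0.36 ± 0.27 (1.28-fold), or 0.10 after median centring of the arrays and 0.20 after quantile normalization. The dimmer Actn1 probe sets had log2 differences of -0.38 ± 0.53 (1452415_at, 102 to 496 on ZPA arrays and 224 to 737 on non-ZPA arrays) and -0.28 ± 0.83 (1427385_s_at, 4.9 to 138 on ZPA arrays and 13.4 to 120 on non-ZPA arrays).

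Of the 23 probe sets, 19 passed the filter and 4 did not, and 13 were above the filter level on all arrays. By mean log2 value, 7 of the 19 were higher and 12 lower in ZPA cells, with a median difference of -0.28, against 0.02 over all 29525 tested probe sets. The ZPA and non-ZPA arrays did not overlap for 1 higher probe set (Myh9) and 3 lower ones (1 of Synpo and 2 of Tpm1), while 7.79% of all tested probe sets had every ZPA array above and 8.73% every ZPA array below every non-ZPA array. Since the genes were chosen from this contrast, nothing is read from these counts. In the limma fit over all tested probe sets, 0.349% rose and 1.28% fell in ZPA cells (Benjamini-Hochberg adjusted p under 0.05). The plot of all differences gives each with its standard error.

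**Figure D3:**
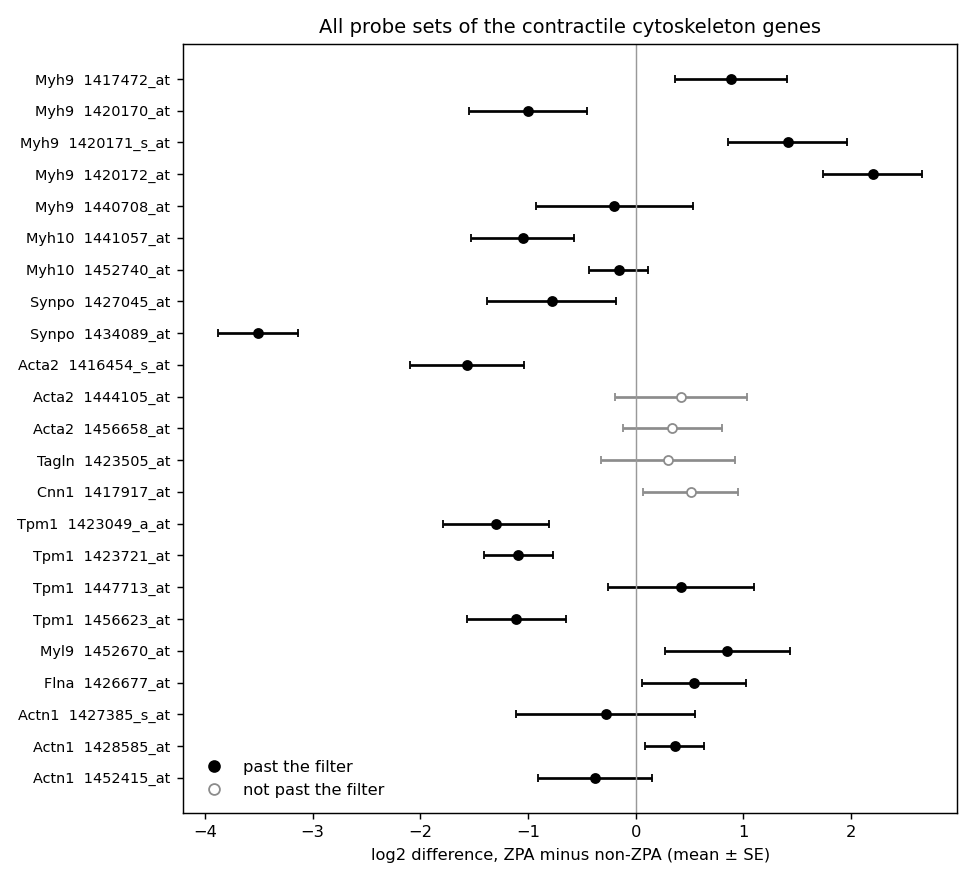
Log2 difference, ZPA minus non-ZPA, of all 23 probe sets of the 10 genes (points) with its standard error (bars, 3 ZPA and 4 non-ZPA arrays). Open points did not pass the filter. Values run from -3.51 for Synpo to 2.20 for Myh9, and probe sets of Myh9, Acta2, Tpm1 and Actn1 fall on both sides of 0.

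ZPA array 4 held the highest value of 7 of the 19 tested probe sets, 3 of Myh9, 2 of Actn1 and those of Myl9 and Flna, and of 26.5% of all tested probe sets. Leukocyte and platelet markers were also highest there, in 6 of the 7 tested. Their summed intensity was 4272, 898 and 48312 on ZPA arrays 1-2, 3 and 4, against 1396 to 2336 on the non-ZPA arrays. The platelet gene Pf4 had 2930, 134 and 32200 on the ZPA arrays and 215 to 826 on the non-ZPA arrays, and the pan-leukocyte gene Ptprc 83.1 to 165 on the ZPA arrays and 40.3 to 158 on the non-ZPA arrays. Platelets are known for high Myh9, Flna and Myl9, and leukocytes for high Myh9 and Flna. The part of these cells, or of the high Actb ratio of that array, in the Myh9, Myl9 and Flna values was not tested.

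**Figure D4:**
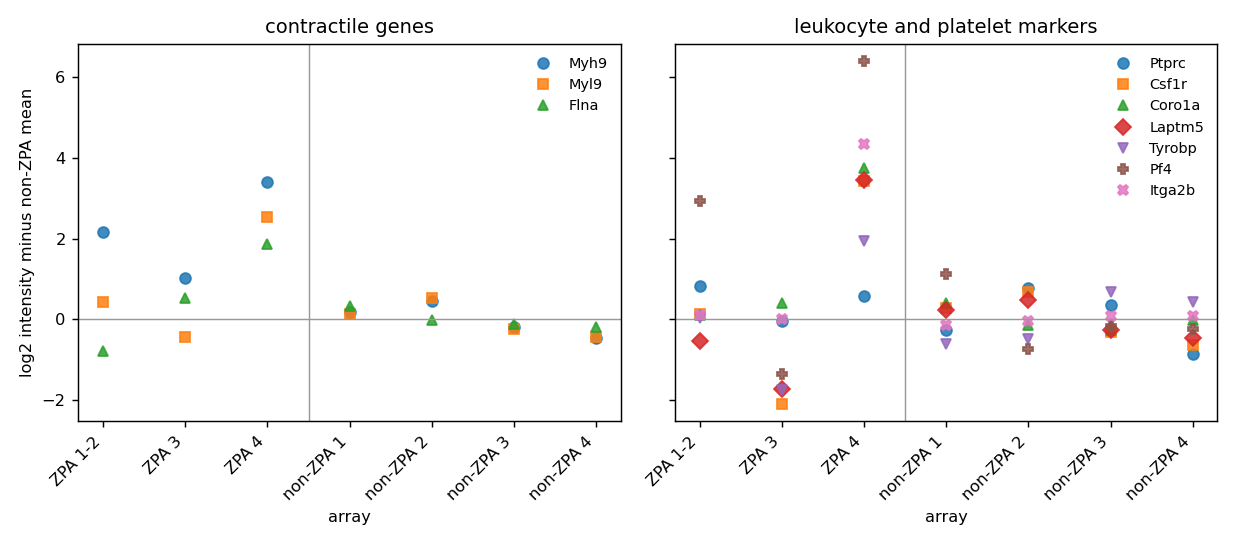
Log2 intensity on each array minus the non-ZPA mean, for Myh9 (1420172_at), Myl9 and Flna (left panel) and 7 leukocyte and platelet markers (right panel), with ZPA arrays left of the line. On ZPA 4 all 3 contractile genes and 6 of the 7 markers have their highest value.

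Muscle cells contain tropomyosin and actin as well, and their markers differed between the sorts. Summed intensity of the 13 skeletal muscle markers was 589 to 1522 on the ZPA arrays and 2701 to 7271 on the non-ZPA arrays, and 3 of them fell in ZPA cells (Met, Pax3 and Myf5, limma, Benjamini-Hochberg adjusted p = 0.00518, 0.0343 and 0.0403). Within the non-ZPA arrays the myogenic factor Myog was 272 and 664 in run 1 and 108 and 50.1 in run 2, with Actc1 high on the same arrays as Acta2. Other markers of the list went the other way between the runs. Pax3 was 223 and 202 in run 1 and 662 and 564 in run 2, and Met was 305 and 1030 in run 1 and 1680 and 1440 in run 2. The part of muscle cells in the Acta2 and Tpm1 values was not tested. Of all genes, 1.74% fell in ZPA cells. Of the surface ectoderm markers 2 of 9 fell, among them Epcam, at 96.9 to 221 on ZPA arrays and 686 to 2780 on non-ZPA arrays (limma, adjusted p = 0.00831). Cdh1 was at 64.2 to 253 on ZPA arrays and 144 to 357 on non-ZPA arrays, and Tfap2c was higher by mean, at 6410 to 8130 on ZPA arrays and 1330 to 4840 on non-ZPA arrays (limma, adjusted p = 0.129). Of the primitive erythroid markers 2 of 6 fell, among them Hba-x, at 347 to 997 on ZPA arrays and 2340 to 9470 on non-ZPA arrays (limma, adjusted p = 0.00721). Their part in the lower Synpo, Acta2 and Tpm1 values was not tested either. The endothelial gene Pecam1 was below the filter level on all arrays.

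The difference between the runs was not used to choose these genes and could be tested. None of the 19 probe sets passed in a limma fit of run with the sort as a term, where 0.152% of all tested probe sets did (Benjamini-Hochberg adjusted p under 0.05, adjusted over all tested probe sets), and 2 had an unadjusted p under 0.05, where 3094 of all 29525 did. Acta2 1416454_s_at had the lowest p of these, with a log2 difference of -1.46 ± 0.36, run 2 minus run 1 (limma, unadjusted p = 0.00119, adjusted p = 0.182). Its non-ZPA mean was 727 in run 2 and 2550 in run 1. The other was the dim Myh9 probe set 1440708_at, at -1.43 ± 0.64 (limma, unadjusted p = 0.0446, adjusted p = 0.467). By mean, 13 of the 19 were lower in run 2 than in run 1, with a median of -0.15, against -0.05 over all tested probe sets.

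Whether the sorts differed alike in both runs was tested with an interaction term, which rests on 1 ZPA array in run 1. None of the 19 probe sets passed, where 0.969% of all tested probe sets did, and 2 had an unadjusted p under 0.05, where 17.8% of all did. Flna differed by -0.93 in run 1 and 1.36 in run 2, ZPA minus non-ZPA, an interaction of 2.29 ± 0.64 (limma, unadjusted p = 0.00425, adjusted p = 0.109). Without ZPA array 3 it was 2.95 and without ZPA array 4 it was 1.63. Leaving out either array puts 1 ZPA array in each run, and the spread is then taken from the non-ZPA arrays alone. No call is read from those fits. Without ZPA 3 the interaction was 1.88 for Myh9 1420172_at and 2.77 for Myl9. Tpm1 1456623_at differed by -2.41 in run 1 and -0.23 in run 2, an interaction of 2.19 ± 0.67 (limma, unadjusted p = 0.00784, adjusted p = 0.137). In 6 of the 19 probe sets the difference had opposite signs in the runs, some of them dim, such as Myh9 1440708_at (-0.14 in run 1 and 0.15 in run 2). The share of all tested probe sets with opposite signs was not counted, so nothing is read from this count.

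Other genes of the actomyosin machinery were taken from 8 lists of 135 genes, of which 128 were found on the array and 122 were tested. In ZPA cells 0 rose and 3 fell (limma, adjusted p under 0.05). Of genes read by 1 probe set each, 0.317% of all rose and 1.74% fell. The median log2 difference of the 122 was -0.10. Rnd3, a small GTP-binding protein known to lower myosin activity, fell most. It had 952, 1590 and 495 on ZPA arrays 1-2, 3 and 4, against 5740, 6640, 4330 and 5120 on the non-ZPA arrays, and its log2 difference was -2.55 ± 0.38 (limma, adjusted p = 0.00518). Pdlim5, which joins alpha-actinin to signalling kinases, had 213, 295 and 314 on the ZPA arrays and 739 to 1210 on the non-ZPA arrays (-1.69 ± 0.34, limma, adjusted p = 0.0246). Msn, or moesin, which ties actin to the membrane, had 1030, 1610 and 1260 on the ZPA arrays and 2360 to 5020 on the non-ZPA arrays (-1.45 ± 0.33, limma, adjusted p = 0.0441). The groups did not overlap in any of the 3. Pdlim5 and Msn lost the call when any 1 non-ZPA array was left out (limma, adjusted p = 0.0687 to 0.17), with no intensity trend (limma, adjusted p = 0.0794 and 0.131) and in run 2 alone (limma, adjusted p = 0.0583 and 0.0512). Msn also lost it without ZPA 3 or ZPA 4 (limma, adjusted p = 0.0522 and 0.0675) and after quantile normalization (limma, adjusted p = 0.052). Rnd3 passed without any 1 array and under each other setting tried, with its highest adjusted p at 0.0499 with no intensity trend (limma).

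By list, 2 of 19 actin crosslinkers fell and none rose. No gene passed among 14 myosin chains, 4 actins, 9 tropomyosins, calponins and transgelins, 27 genes of actin assembly and turnover, 15 regulators and targets of serum response factor and YAP, and 15 focal adhesion genes. The most abundant actins were higher by mean without passing. The size of their differences, and for Actb the sign, depended on the scaling. Actg1 had 53600, 37800 and 75900 on the ZPA arrays and 24500 to 28000 on the non-ZPA arrays (1.03 ± 0.30, limma, adjusted p = 0.099, and 0.02 after quantile normalization). Actb had 42100, 25600 and 46000 on the ZPA arrays and 21100 to 25000 on the non-ZPA arrays (0.70 ± 0.29, limma, adjusted p = 0.239, and -0.22 after quantile normalization). Tmsb10, a thymosin that binds actin monomers, had 61500, 30700 and 94000 on the ZPA arrays and 20300 to 25800 on the non-ZPA arrays (1.36 ± 0.36, limma, adjusted p = 0.0721, and 0.32 after quantile normalization). In the deposited intensities all 3 kept every ZPA array above every non-ZPA array. Without ZPA array 1-2, 9 of the 122 rose and 13 fell, where 1023 of all 29525 tested probe sets rose and 1563 fell. Actg1 and Tmsb10 were among those that rose then (limma, adjusted p = 0.034 and 0.0383) and also without ZPA array 3 (limma, adjusted p = 0.0315 and 0.0158).

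**Figure D5:**
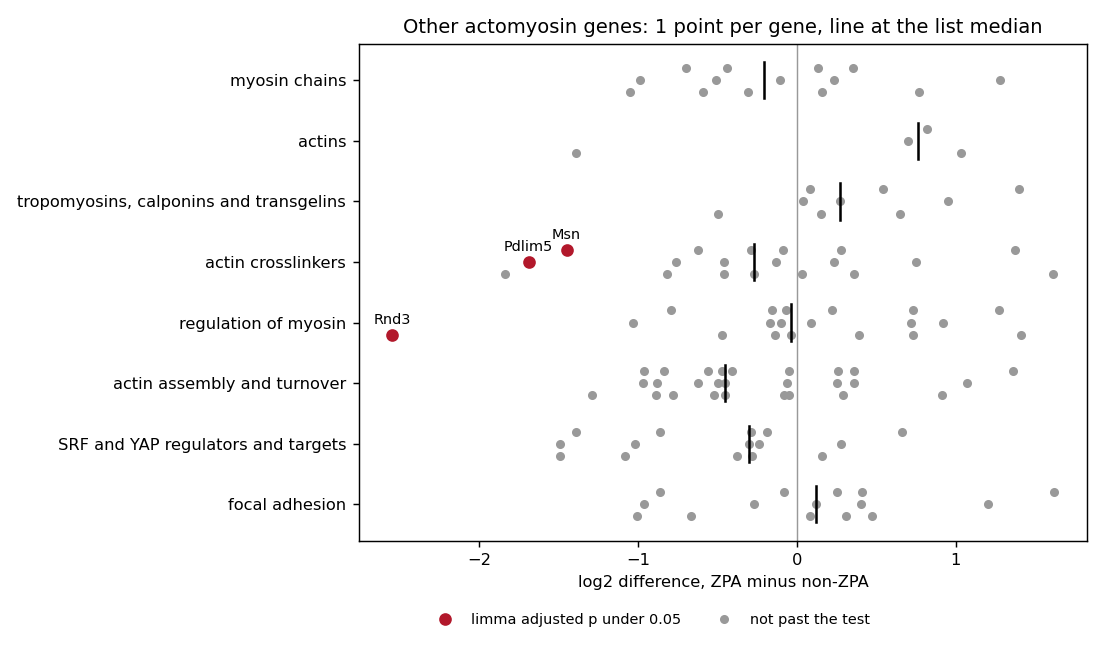
Log2 difference, ZPA minus non-ZPA, of 122 other actomyosin genes in 8 lists (points, staggered in height within a list, with a line at the list median). Red points passed the limma test and are Rnd3, Pdlim5 and Msn, all lower in ZPA cells.

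The light chains Myl12a and Myl12b, which serve the same nonmuscle myosins as Myl9, had means of opposite sign and did not pass over all 7 arrays. Myl12a had 11500, 15300 and 24900 on the ZPA arrays and 8380 to 10600 on the non-ZPA arrays (0.77 ± 0.31, limma, adjusted p = 0.221), rose without ZPA array 1-2 (1.03, limma, adjusted p = 0.0264), and had a second probe set of the other sign. Myl12b had 2600, 2750 and 2960 on the ZPA arrays and 3140 to 4640 on the non-ZPA arrays (-0.51 ± 0.28, limma, adjusted p = 0.381). The myosin phosphatase subunits Ppp1cb and Ppp1r12a differed by 0.22 ± 0.28 and 0.09 ± 0.59. Ppp1r12a ranged from 2670 to 27400 on the ZPA arrays and was at -0.91 without ZPA array 1-2, where it fell (limma, adjusted p = 0.0475). The tropomyosin Tpm3 and the calponin Cnn3, relatives of Tpm1 and Cnn1, differed by 0.27 ± 0.34 and 0.08 ± 0.26, or -0.28 and -0.57 after quantile normalization, with Cnn3 at 18800 to 22700 on ZPA arrays and 18700 to 20300 on non-ZPA arrays. Cofilin, or Cfl1, which severs filaments, differed by 0.91 ± 0.36 without passing, by -0.02 after quantile normalization, and by 1.17 without ZPA array 1-2, where it rose (limma, adjusted p = 0.0417). A second Cfl1 probe set had a difference of the other sign over all 7 arrays. The integrin Itgav differed by 0.08 ± 0.50 without passing, by -1.56 in run 1, and by 0.89 without ZPA array 1-2, where it rose (limma, adjusted p = 0.0377). Other named genes that did not pass were the coactivator Yap1 (-0.28 ± 0.29), the LIM protein Csrp2 (-0.38 ± 0.31) and the integrin activator Fermt2 (0.31 ± 0.34).

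The genes whose pattern over the 7 arrays was nearest to the chosen ones were found by the root mean square difference of log2 profiles, each centred on its own mean, among 13883 genes. Nearest to Synpo were Ackr3 (0.35), Igf1 (0.39) and Col1a2 (0.43), where the median gene was at 1.87. Ackr3, a receptor for the chemokine Cxcl12, had 218, 29.8 and 76.7 on the ZPA arrays and 868 to 1800 on the non-ZPA arrays. It was below the filter level on ZPA 3 and ZPA 4. Nearest to Acta2 were Rusc2 (0.21), Rgs16 (0.29) and Fat4 (0.31), with a median of 1.24. Rusc2 was at 12.7 to 60.3 on the ZPA arrays, below the filter level on each, and passed the filter through the non-ZPA arrays alone. Rgs16 was below that level on ZPA 3 and ZPA 4. Nothing is read from the likeness of either to Acta2. Fat4, a large protocadherin, had 847, 303 and 354 on the ZPA arrays and 3030, 3570, 847 and 712 on the non-ZPA arrays, high on the same run 1 non-ZPA arrays as Acta2. Nearest to Myh9 were Olr1 (0.29), Cela1 (0.35) and Gorasp1 (0.37), with a median of 1.38, and Olr1 was at 57.4 to 179 on ZPA arrays and 3.4 to 25.8 on non-ZPA arrays. Olr1 was below the filter level on every non-ZPA array and passed the filter through the ZPA arrays alone. Its likeness to Myh9 therefore rests on dim values, and nothing is read from it. Tagln was not tested and has no such neighbours.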

How the data were processed

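Sorted limb bud cells were measured on 8 arrays, from 50 ng of RNA amplified in 2 cycles, per the labels. The authors deposited 1 signal intensity per probe set and array, on a linear scale, with GCOS 1.3 as the software per the submitters' processing notes. Its summary method and detection calls are not given in the sources used here. The deposited columns were already scaled to a common 2% trimmed mean of 500, and no further scaling was done. Of 45101 probe sets, 34945 had 1 gene symbol in the platform annotation, 932 several and 9160 none here, and 64 were controls, which were left out. No column belonged to another series.

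The columns of ZPA replicates 1 and 2 differed by at most 0.5 units and other pairs had maximum differences of 11381 units or more, so both were averaged and counted once. Values were log2(intensity + 16), which understates changes of dim probe sets. A probe set was tested where it exceeded the 40th percentile of its array on at least 3 of the 7 arrays (29525 probe sets, 13884 genes). Tests used limma 3.58.1 in R 4.3.3 (lmFit, eBayes with an intensity trend, 2-sided, Benjamini-Hochberg over all tested probe sets, threshold 0.05), tested on simulated data. P-values measure only the spread between these samples, and the number of arrays limits the precision. A gene outside the 10 was read by its probe set with the highest mean. Named genes were all probe sets of the 10, Shh, up to 4 called genes per list and direction or else the 2 with the highest level, defining markers of cell types, and the 3 nearest profiles of Myh9, Synpo, Acta2 and Tagln. Some further markers of muscle, pericytes and platelets (Met, Myf5, Actc1, Pdgfrb, Smtn, Cspg4, Abcc9) and ectoderm (Tfap2c) were named after their values were seen. The genes, lists and alternatives were chosen with earlier results of these data known. Promoter windows come from RefSeq, build GRCm38.p6. The alternatives were the pseudocount, scaling, filter, block, trend, single runs, 1 probe set per gene and leaving out each array.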

Additional observations from a re-analysis of the deposited data

Results flagged for a closer look

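Non-ZPA 2 lay far above the other non-ZPA arrays on both Tpm1 probe sets whose groups did not overlap. It had 1760 at 1423049_a_at, where the other non-ZPA arrays had 411 to 495, and 1410 at 1423721_at, where they had 992 to 1040. These were 2 of the 23 probe sets examined in the 4 non-ZPA arrays, and chance flags about 1 in 20 such groups.

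The Flna difference between the sorts had opposite signs in the runs, with a gap of 2.29 on the log2 scale, run 2 minus run 1. Run 1 holds 1 ZPA array, and the gap did not pass the test of an interaction term (limma, adjusted p = 0.109).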

How the results depend on the processing

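Counts of calls between the sorts moved with the settings. Over all tested probe sets, 103 were higher and 378 lower in ZPA cells. With the run as a block they were 191 and 622, in run 1 alone, with 1 ZPA array and the spread of 2 non-ZPA arrays only, 2681 and 3304, with no intensity trend 15 and 83, and with 1 probe set per gene 55 were higher. The replicate block, with the shared ZPA array as replicate 2, gave 175 and 607. As replicate 1 it gave 97 and 369. Deviations of same-numbered arrays had correlations of -0.02 to 0.08, so the numbers were not taken to pair the samples. Leaving out 1 array gave 14 to 1023 higher and 110 to 1563 lower. The highest counts came without ZPA 1-2, 218 were higher without ZPA 3, and leaving out non-ZPA 1, 2, 3 or 4 gave 31, 15, 14 and 22 higher and 180, 110, 116 and 144 lower. Of the pathway genes, 1 was higher at pseudocount 64, 10 were higher and 33 lower in run 1 alone, and 1 was lower with no trend. Leaving out 1 array gave 0 to 9 higher and 1 to 13 lower. Calls between the runs numbered 45, against 29 after quantile normalization, 0 with no trend, 91 in the non-ZPA arrays alone and 1 to 46 with 1 array left out, and 0 of the contractile probe sets passed in any of these. Groups with fewer arrays overlap less readily, and the share of all tested probe sets with groups apart was not counted with an array left out. Contractile probe sets with groups apart were 4, and 4 to 9 with 1 array left out, with 9 without ZPA 1-2 and 8 without ZPA 3. Interaction calls among them were 0. Without ZPA 3 or without ZPA 4 each run held 1 ZPA array, so calls from those 2 fits are not read. Without ZPA 1-2 the interaction could not be fitted. Of the differences of single probe sets between the sorts under the alternatives, 309 moved by less than the replicate spread and 14 by more. The cause of these changes was not tested. Median centring of each array shifted the median of all probe sets by -0.25, and Actn1 1428585_at was then at 0.10. Intensities near or below the filter level, as for Tagln and Cnn1, limit what can be read.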
